A study of Mus musculus with 3 samples.

Results

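The 33 genes described here encode the glucose transporters, the enzymes of glycolysis, the lactate enzymes and exporters, the regulators of glycolytic flux and the oxygen-sensing proteins that act around hypoxia-inducible factor (HIF). They were chosen by name from the 25759 genes of the series. Of the 33, 32 were listed under their own symbol and Aldoa was matched by its gene identifier (ENSMUSG00000030695). All 33 had reads in each library. RPKM is the number of reads on a gene's exons scaled by exon length and by the library's total reads. In 1 or more libraries 28 of the 33 exceeded 5 RPKM, and 7017 genes of the series did so.

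The RNA came from follicular regulatory T cells (TFR cells), sorted as B220-CD4+CXCR5+GITRhi cells with GFP from a Prdm1 reporter allele. Spleen and mLN of mice on a C57BL/6J background were taken 10 days after immunization with 125 µg NP-KLH in alum, with a boost on day 7. There was 1 library for each of 3 genotypes. The library labelled N came from Nfatc1fl/fl.Prdm1gfp/+.FIC mice, the library labelled αA from Nfatc1caaA.Prdm1gfp/+.FIC mice and the library labelled PαA from Nfatc1caaA.Prdm1gfp/fl.FIC mice. FIC is Foxp3-IRES-Cre, so recombination was driven from the Foxp3 locus, and all 3 genotypes carry it together with 1 Prdm1-gfp allele. The number and age of the mice behind each library are not given in the sources used here. With 1 library per genotype there is no replicate check of any difference, no test was made, and genotype, animal, sort and library cannot be told apart. The intervals given are exact 95% intervals on the read counts. They cover counting error only, since PCR copies without molecular identifiers are not independent molecules.

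The libraries held 29726219, 27239921 and 25465829 counted reads for N, αA and PαA. Intron reads over all genes numbered 857817, 1158553 and 791182, so αA held the most. The intron ratios below are scaled by counted reads and are not corrected for this. Nfatc1 was at 63.6, 62.9 and 32.4 RPKM, which does not follow the labels of deficiency in N and overexpression in αA and PαA. That level counts all exons of the gene, and reads within the deleted part alone were not analysed here, so it does not check the deletion. Prdm1, at 25.6, 24.9 and 10.0 RPKM, was lowest in the library labelled Blimp-1-deficient. Foxp3 was at 32.7, 20.9 and 15.3 RPKM. The summed level of 12 TFR and sort markers, which include these genes, was 2163, 2001 and 1334 RPKM. Between αA and N, 5 were higher and 7 lower. All 12 were lower in PαA than in αA, as 56.9% of genes with RPKM above 5 were, with a median log2 ratio of -0.68. Past 1.5-fold lower there were 7, against 9.19% of genes: Ikzf2, Ctla4, Cxcr5, Icos, Tnfrsf18 (GITR), Prdm1 and Nfatc1. Of 10 proliferation markers, 6 had RPKM above 5, and by RPKM all 6 were lower in αA than in N, as 68.1% of genes were. Only Top2a of these was past 2-fold there. Each direction below is one between libraries as labelled. Among markers of other cells, the summed level of 5 erythroid genes was 570 RPKM in N, 2398 in αA and 2144 in PαA, that of 7 myeloid genes was 267, 170 and 237 RPKM, and that of 6 B and plasma cell genes was 60.9, 72.02 and 115 RPKM. Within the myeloid genes S100a8 was at 12.8, 0.83 and 11.9 RPKM and Adgre1 at 2.30, 5.32 and 4.93 RPKM, so their sum joins genes that differed in opposite directions. Of the plasma cell genes, Jchain was at 44.3, 58.4 and 94.8 RPKM and Sdc1 at 0.74, 1.03 and 5.97 RPKM. Of the 6 B and plasma cell genes, 3 had RPKM above 5. In each comparison 2 of these were higher and 1 lower, so this sum also joins opposite directions. Their part in the differences below was not tested, and in sorted bulk RNA fewer cells of a type and less RNA per cell cannot be told apart.

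Glycolysis splits glucose into pyruvate in the cytosol. Its preparatory steps spend ATP and its payoff steps return ATP and NADH, and lactate dehydrogenase turns pyruvate into lactate to restore NAD. In normal oxygen, prolyl hydroxylases mark the HIF alpha subunits for destruction by the von Hippel-Lindau protein. In low oxygen the alpha subunits persist, pair with ARNT and bind a short DNA core that is found near many glycolysis genes. T cells also raise glycolysis upon activation, and regulatory T cells are known for leaning more on oxidative metabolism than effector T cells do.

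The shared DNA core was present in most of the members' promoters. RefSeq windows from 250 bases before to 50 bases after the transcription start (GRCm38.p6) were found for 31 members, in 44 windows. Epas1 and Slc2a3 had no entry. The cores ACGTG and GCGTG were searched on both strands, so that a palindromic CACGTG counts as ACGTG on each strand. One or both cores lay in a window of 28 of the 31 members (90.3%), against 46.7% of 27025 genes and 69.8% of 5547 genes with RPKM above 5. ACGTG alone was held by 20 of 31 members (64.5%), against 21.8% of all genes and 30.6% of those with RPKM above 5. GCGTG was held by 21 of 31 (67.7%), against 35.2% and 58.2%. The E-box CACGTG, which contains ACGTG, was held by 6 of 31 (19.4%), against 8.09% and 12.6%. GGAAA, the core of NFAT sites, was held by 18 of 31 (58.1%), against 64.5% of all genes and 64.5% of those with RPKM above 5. GAAAG, a core of Blimp-1 sites, was held by 19 of 31 (61.3%), against 60.6% and 58.2%. The members held ACGTG more often than genes at large, also by window, with 52.3% of 44 windows against 19.6% of 32851. A gene was counted if any of its windows held the core. Of the 26 members with a window and RPKM above 5, 17 (65.4%) held ACGTG, against 30.6% of genes at that level. For GCGTG it was also 17 (65.4%), near the 58.2% of genes at that level. Members held the NFAT and Blimp-1 cores at about the share of genes at large. A match of these letters is a description of the window and not a bound site. The 3 members without either HIF core in a window were Gpi1, Tpi1 and Vhl.

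The 250 bases upstream of the start are printed 5′ to 3′ along the gene's strand for Hif1a, Slc2a1, Pfkfb3 and Tpi1, which were past 1.5-fold lower in αA than in N, and for Pgk1 and Ldha, which hold several cores. Tpi1 holds none. For Pfkfb3 and Ldha, which have a further window with a core, 1 start is shown. Capitals mark both cores on either strand, with overlapping matches merged.
Hif1a (chr12:73907617-73907866, plus strand): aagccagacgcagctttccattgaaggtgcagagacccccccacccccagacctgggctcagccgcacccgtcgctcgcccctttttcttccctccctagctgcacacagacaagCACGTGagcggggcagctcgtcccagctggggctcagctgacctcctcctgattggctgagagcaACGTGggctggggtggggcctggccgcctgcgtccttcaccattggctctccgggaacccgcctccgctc
Slc2a1 (chr4:119108495-119108744, plus strand): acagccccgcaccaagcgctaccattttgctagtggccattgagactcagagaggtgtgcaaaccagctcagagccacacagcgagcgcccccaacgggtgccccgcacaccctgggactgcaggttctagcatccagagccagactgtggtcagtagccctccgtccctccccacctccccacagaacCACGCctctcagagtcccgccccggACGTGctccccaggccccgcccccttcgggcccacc
Pfkfb3 (chr2:11553930-11554179, minus strand): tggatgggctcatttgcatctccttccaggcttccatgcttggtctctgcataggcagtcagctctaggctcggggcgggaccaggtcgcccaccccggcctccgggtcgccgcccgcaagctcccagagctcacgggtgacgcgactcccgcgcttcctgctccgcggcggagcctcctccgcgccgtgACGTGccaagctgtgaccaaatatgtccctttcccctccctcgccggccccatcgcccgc
Pgk1 (chrX:106186850-106187099, plus strand): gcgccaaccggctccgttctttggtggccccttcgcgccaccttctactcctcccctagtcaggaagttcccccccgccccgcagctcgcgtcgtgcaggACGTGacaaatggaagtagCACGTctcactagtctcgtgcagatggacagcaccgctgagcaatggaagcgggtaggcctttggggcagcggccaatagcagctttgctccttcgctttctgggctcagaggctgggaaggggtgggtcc
Ldha (chr7:46845554-46845803, plus strand): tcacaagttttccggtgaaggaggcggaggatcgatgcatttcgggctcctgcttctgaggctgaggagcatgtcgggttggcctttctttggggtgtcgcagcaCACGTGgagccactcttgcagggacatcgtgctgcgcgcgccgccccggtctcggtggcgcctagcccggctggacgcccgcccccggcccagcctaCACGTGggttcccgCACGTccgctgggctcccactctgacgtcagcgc
Tpi1 (chr6:124814159-124814408, minus strand): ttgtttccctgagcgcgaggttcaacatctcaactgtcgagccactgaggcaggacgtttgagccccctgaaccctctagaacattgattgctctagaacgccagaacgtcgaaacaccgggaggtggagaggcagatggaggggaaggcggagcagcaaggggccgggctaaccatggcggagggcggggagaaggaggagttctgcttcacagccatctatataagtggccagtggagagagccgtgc

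The members as a whole were mostly lower in αA than in N by small amounts, and divided evenly between higher and lower in PαA against αA. Their summed level was 3367 RPKM in N, 2859 in αA and 2967 in PαA, and their reads made up 0.968%, 0.851% and 0.844% of the exon reads of those libraries. Between αA and N, 25 of the 28 members with RPKM above 5 had a ratio below 1, against 68.1% of all genes at that level. The counting interval lay below 1 for 22 of the 28, against 53.8% of genes, and above 1 for Slc2a3 and Ldhb alone, against 20.1%. The median log2 ratio of the 28 was -0.27, against -0.14 for all such genes. Scaling by trimmed mean of M-values (TMM) factors shifted every log2 ratio of αA to N upwards, so that the median of all genes was 0.02. With TMM, 19 of 28 members were below 1, against 46.4% of genes, and the members' median was -0.11. Between PαA and αA, 14 of 28 members had a ratio below 1, against 56.9% of genes, and 13 with TMM, against 49.4%. The interval lay above 1 for 10 members, against 30.2% of genes, and below 1 for 12, against 43.4%. Their median was 0.003, against -0.06 for all genes.

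**Figure D1:**
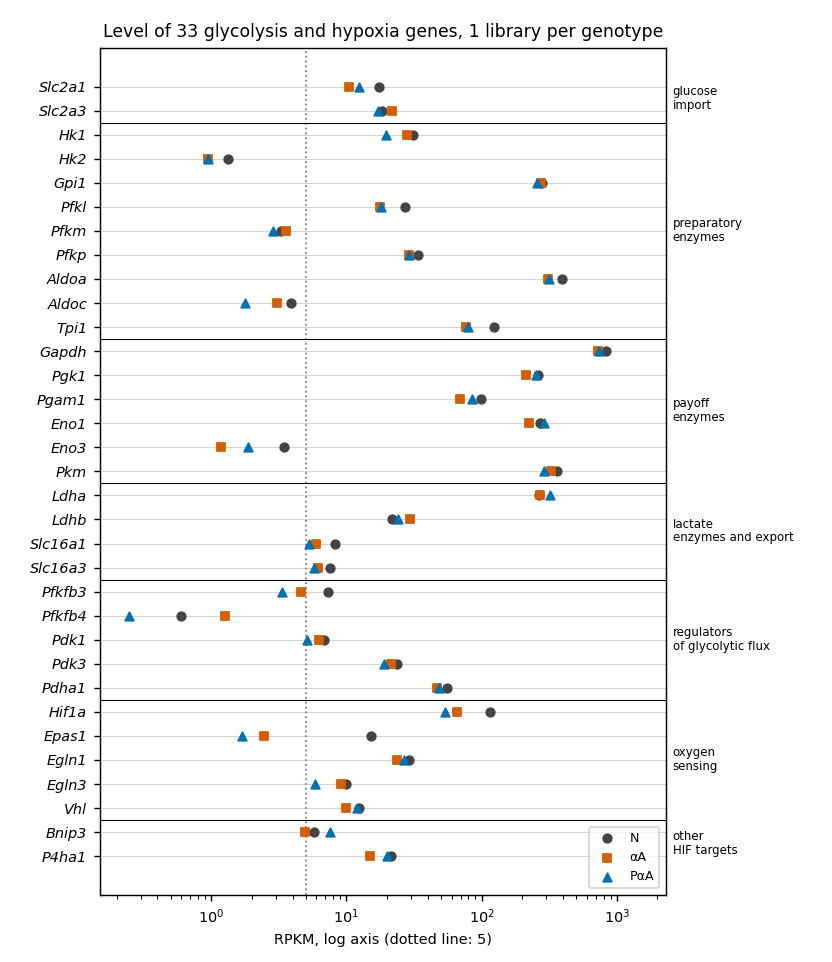
Level of each of the 33 genes in the libraries labelled N (circles), αA (squares) and PαA (triangles), in RPKM on a log axis, grouped by role, with a dotted line at 5 RPKM. Gapdh stands highest at 724 to 833 RPKM, and the points of most genes lie close together, with Epas1 apart at 15.3 RPKM in N against 2.48 and 1.69 RPKM.

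Few members passed 2-fold in any comparison. Between αA and N only Epas1 of the 28 was more than 2-fold lower, where 2.81% of the 7017 genes were, and none was more than 2-fold higher, where 1.44% were. Past 1.5-fold, 6 members were lower (Slc2a1, Pfkl, Tpi1, Pfkfb3, Hif1a and Epas1), against 11% of genes, and none was higher, against 3.12%. Epas1 and Pfkfb3 exceeded 5 RPKM in N alone, so the limit selected them as high in N. The shares of all genes were taken under the same limit. With TMM factors Hif1a and Epas1 were past 1.5-fold lower, against 6.26% of genes, and Ldhb was past 1.5-fold higher, against 5.04%. Between PαA and αA none of the 28 passed 2-fold, against 2.18% of genes higher and 2.45% lower, and past 1.5-fold Bnip3 was higher, against 5.53%, and Egln3 lower, against 9.19%. With TMM factors Egln3 was not past 1.5-fold.

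Between PαA and N, which sums the other two comparisons, Pfkfb3, Hif1a and Epas1 were more than 2-fold lower, against 7.77% of genes, and none was more than 2-fold higher, against 2.57%. Here too Pfkfb3 and Epas1 passed the limit of 5 RPKM through N alone. With TMM factors only Epas1 passed 2-fold, against 3.89% of genes lower. Past 1.5-fold, 8 members were lower, against 22.3% of genes, and none was higher, against 5.67%. A ratio below 1 was found for 24 of 28 members, against 66.4% of genes, and with TMM for 14, against 46.8%. The interval lay below 1 for 23 members, against 56.7% of genes, and above 1 for Eno1, Ldha, Ldhb and Bnip3, against 24.7%. The shares past 1.5-fold and with a TMM ratio below 1 were close to those of genes at large.

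Exon length moved with these ratios. Among genes with RPKM above 5, the median log2 ratio of αA to N went from -0.03 in the group of shortest exon length, of 4 equal groups, to -0.27 in the group of longest, and that of PαA to αA from 0.13 to -0.22. The part of this in single genes was not tested, but each ratio was also centred on a smooth curve over exon length, and the centred value is given below where it matters.

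**Figure D2:**
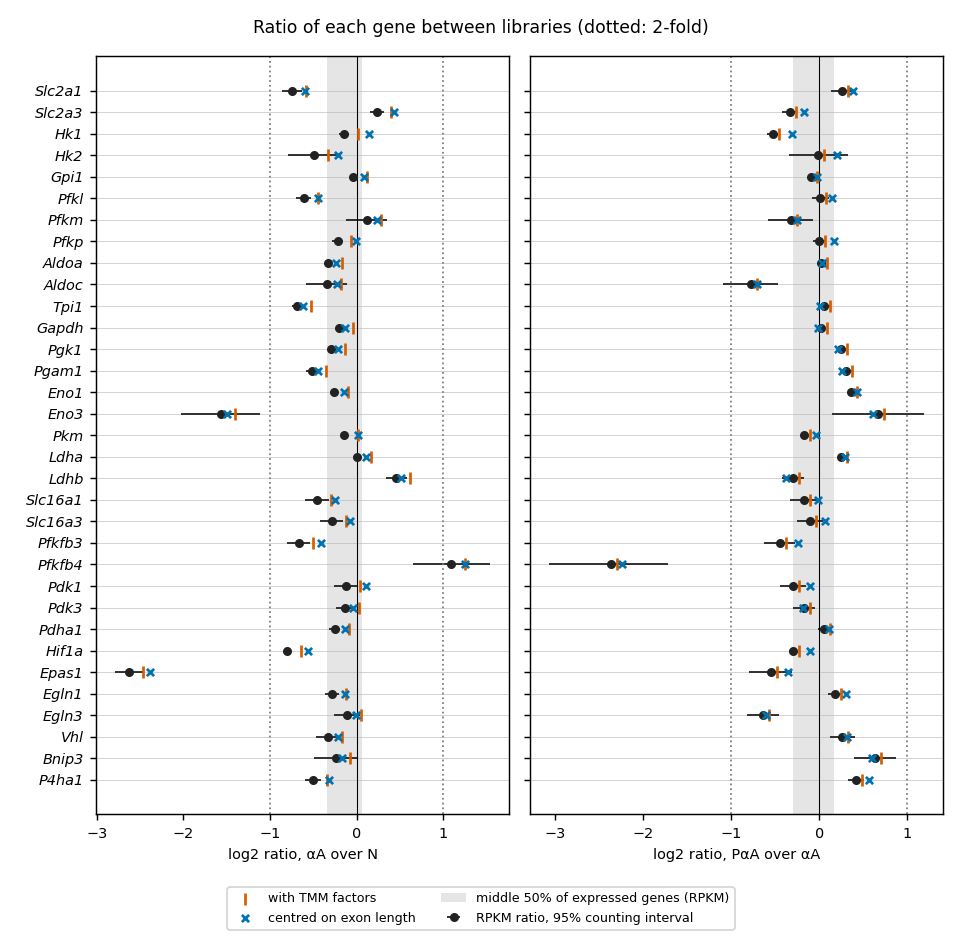
Log2 ratio of each gene for αA over N (left) and PαA over αA (right). Points with bars are RPKM ratios with 95% counting intervals, vertical ticks use TMM factors, crosses are centred on exon length, the grey band holds the middle 50% of genes with RPKM above 5, and dotted lines mark 2-fold. Epas1 lies at -2.63 on the left, while on the right the payoff enzymes Pgk1, Pgam1 and Eno1 lie above 0 and Hk1, Hif1a and Egln3 below it.

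By RPKM the alpha subunits of HIF lay furthest below N in αA among the 28 members above 5 RPKM, but when centred on exon length Tpi1 and Slc2a1 lay below Hif1a. Epas1, which encodes HIF-2alpha, lies at chr17:86753907-86833410 (GRCm38, plus strand). It had 2414, 358 and 228 exon reads in N, αA and PαA, which is 15.3, 2.48 and 1.69 RPKM. The library labelled N thus stood well above both others. Epas1 was 6.18-fold lower in αA than in N (log2 ratio -2.63, interval -2.79 to -2.47), and the centred log2 ratio was -2.39. Between PαA and αA its log2 ratio was -0.55 (-0.80 to -0.31). Its intron reads, 48, 54 and 18, were few and did not follow the exon reads from N to αA. Epas1 is well known in endothelial cells. Of 5 endothelial markers Cdh5, Kdr, Tek and Emcn were at or below 0.28 RPKM in all 3 libraries. Pecam1, which T cells also express, was at 13.4, 9.57 and 9.86 RPKM, and so was highest in N, as Epas1 was. These markers were chosen after the values of Epas1 were seen, and a part of endothelial RNA in them was not tested.

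Hif1a encodes HIF-1alpha, the subunit that drives most glycolytic targets, and lies at chr12:73901375-73947530 (plus strand). It was at 115.4 RPKM in N, 66.1 in αA and 53.5 in PαA, so its order across libraries was that of Epas1 with a smaller span. Its log2 ratio of αA to N was -0.80 (-0.84 to -0.77), or 1.75-fold lower, and -0.56 when centred on exon length. Intron reads of Hif1a, 150 in N and 85 in αA, gave a log2 ratio of -0.69 (-1.09 to -0.30). Between PαA and αA the ratio was -0.30 (-0.35 to -0.26), and -0.10 when centred. Only 36.7% to 40.1% of its exon reads matched a single place, so part of its level may belong to a near-identical copy. On unique reads alone the log2 ratio of αA to N was -0.90. Within a library no scaling alters the ratio of Hif1a to Epas1, but it includes the Hif1a reads that matched several places. That ratio was 7.55 (7.23 to 7.88) in N, 26.7 (24.0 to 29.8) in αA and 31.7 (27.8 to 36.4) in PαA.

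The hydroxylases that tag HIF alpha differed less. Egln1 (PHD2), the main oxygen sensor of most cells, was at 29.0, 23.8 and 26.9 RPKM. Egln3 (PHD3), itself a HIF target, was at 9.93, 9.20 and 5.89 RPKM, and was 1.56-fold lower in PαA than in αA (log2 ratio -0.64, -0.83 to -0.46). N and αA did not differ in Egln3 beyond counting error, with a log2 ratio of -0.11 (-0.26 to 0.04). Egln1 was accordingly 2.91-fold above Egln3 in N, 2.59-fold in αA and 4.57-fold (4.11 to 5.09) in PαA. Vhl, the von Hippel-Lindau protein that recognises the hydroxylated subunit, was at 12.5, 9.93 and 11.9 RPKM, with log2 ratios of -0.33 (-0.47 to -0.19) for αA to N and 0.26 (0.12 to 0.41) for PαA to αA.

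Of the other regulators of the HIF pathway, 9 of 11 listed genes were found under their symbols and 7 had RPKM above 5. Arnt2, a partner subunit related to ARNT, was at 10.2, 3.50 and 2.36 RPKM, with a log2 ratio of αA to N of -1.54, and was the only 1 of the 7 past 2-fold there, at -1.22 when centred on exon length. Ep300, a histone acetyltransferase recruited by HIF, was at 9.40, 5.22 and 4.36 RPKM, with a log2 ratio of -1.11 for PαA to N, which was -0.88 with TMM factors and -0.35 when centred, both short of 2-fold. Arnt, the usual partner, was at 11.3, 10.3 and 8.23 RPKM and Egln2, a further hydroxylase, at 19.5, 21.4 and 24.5 RPKM. By RPKM 4 of the 7 were lower in αA than in N, as 68.1% of all genes were, and Egln2 was lowest in N.

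**Figure D3:**
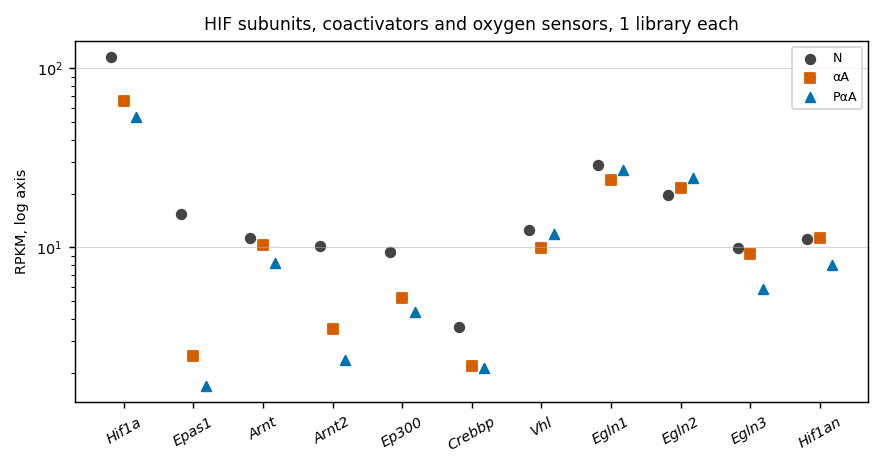
Levels of HIF subunits, their coactivators and the oxygen sensors in RPKM on a log axis, with a point for each of the libraries N, αA and PαA. By RPKM, Hif1a, Epas1, Arnt2 and Ep300 stand highest in N, with αA well below, while Arnt, Egln1, Egln2 and Hif1an differ less.

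At the point of glucose entry the 2 transporters differed in opposite directions between αA and N. Slc2a1 (GLUT1, chr4:119108711-119137983, plus strand), the transporter that activated T cells raise, was at 17.4, 10.4 and 12.4 RPKM. Slc2a3 (GLUT3, chr6:122727809-122801640, minus strand), a transporter of high affinity, was at 18.4, 21.6 and 17.2 RPKM. N was highest for Slc2a1 and αA for Slc2a3. Slc2a1 was 1.68-fold lower in αA than in N (log2 ratio -0.75, -0.86 to -0.63), and -0.60 when centred on exon length, and its log2 ratio of PαA to αA was 0.26 (0.14 to 0.39). Slc2a3 had log2 ratios of 0.24 (0.16 to 0.32) for αA to N and -0.33 (-0.42 to -0.25) for PαA to αA. The ratio of Slc2a3 to Slc2a1 was 1.06 (0.99 to 1.12) in N, 2.09 (1.94 to 2.25) in αA and 1.38 (1.28 to 1.49) in PαA.

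Among the preparatory enzymes, the 6 with RPKM above 5 were all lower in αA than in N by RPKM, as 68.1% of genes at that level were. Hk1 and Gpi1 stood slightly above N with TMM factors (log2 ratios of 0.02 and 0.12) or when centred on exon length. Hk1, the hexokinase that prevailed in these cells, was at 31.1, 28.2 and 19.5 RPKM, against 1.34, 0.95 and 0.95 RPKM for Hk2, the isozyme that HIF and MYC induce, a ratio of 23.3 in N, 29.6 in αA and 20.6 in PαA. Hk1 was 1.45-fold lower in PαA than in αA (log2 ratio -0.53, -0.60 to -0.47), and -0.31 when centred. Its intron reads, 116, 146 and 76, gave a log2 ratio of -0.84 (-1.26 to -0.44) in the same direction. Intron reads over all genes were also fewer in PαA than in αA. Gpi1, glucose-6-phosphate isomerase, was nearly level at 281, 274 and 257 RPKM.

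Phosphofructokinase, which commits sugar to glycolysis, was carried by the platelet and liver isozymes. Pfkp was at 34.0, 29.2 and 29.0 RPKM, Pfkl at 27.2, 17.8 and 17.97 RPKM and the muscle isozyme Pfkm at 3.29, 3.56 and 2.84 RPKM. Pfkl was 1.53-fold lower in αA than in N (log2 ratio -0.61, -0.69 to -0.53), and the ratio of Pfkp to Pfkl was 1.25 (1.19 to 1.31) in N, 1.64 (1.55 to 1.73) in αA and 1.62 (1.52 to 1.71) in PαA. The intron reads of Pfkp, 85 in N and 147 in αA, gave a log2 ratio of 0.92 (0.52 to 1.32), against -0.22 for its exon reads. Intron reads over all genes were also more numerous in αA than in N.

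Aldolase splits the 6-carbon sugar and triose phosphate isomerase interconverts its products. Aldoa, the ubiquitous aldolase, was at 391, 312 and 317 RPKM. Aldoc, an isozyme best known from brain, was at 3.89, 3.06 and 1.78 RPKM, from 344, 248 and 135 reads. The ratio of Aldoa to Aldoc was 101 in N, 102 in αA and 178 (150 to 212) in PαA. Tpi1, triose phosphate isomerase, was at 123, 76.6 and 79.4 RPKM. It was thus highest in N and close in the other two, with a log2 ratio of αA to N of -0.69 (-0.75 to -0.63), or 1.61-fold lower, and -0.62 when centred.

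The payoff enzymes with RPKM above 5 were lower in αA than in N by RPKM (5 of 5), as 68.1% of genes at that level were. Pkm stood at a log2 ratio of 0.02 with TMM factors. Pgk1, phosphoglycerate kinase, was at 261, 213 and 253 RPKM. Pgam1, phosphoglycerate mutase, was at 99.1, 69.2 and 85.2 RPKM. Eno1, the main enolase, was at 269, 224 and 288 RPKM. These 3 consecutive steps shared a low point in αA, with log2 ratios of -0.29, -0.52 and -0.26 for αA to N and 0.25, 0.30 and 0.36 for PαA to αA. Each kept these signs with TMM factors, on unique reads and when centred on exon length, although 74.3% to 76.8% of Pgam1 reads and 23.3% to 23.8% of Eno1 reads were unique.

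Gapdh, the most abundant member, was at 833, 724 and 735 RPKM, but just 3.08% to 3.25% of its reads were unique, as mouse Gapdh has many pseudogenes, and its PαA to αA log2 ratio of 0.02 turned to -0.05 on unique reads. Pkm, pyruvate kinase, was at 362, 327 and 290 RPKM. Its log2 ratio of PαA to αA was -0.17 (-0.20 to -0.15), opposite in sign to the enzymes just upstream. Eno3, the muscle enolase, was at 3.47, 1.17 and 1.86 RPKM from 174, 54 and 80 reads, a log2 ratio of αA to N of -1.56 (-2.03 to -1.11), so the ratio of Eno1 to Eno3 was 77.5 in N, 191 in αA and 155 in PαA.

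The lactate enzymes did not share the lower level in αA. Ldha, whose subunit favours the step from pyruvate to lactate, was at 267, 269 and 320 RPKM. Ldhb, whose subunit favours the reverse step, was at 21.7, 29.8 and 24.2 RPKM. Ldha was thus level in N and αA and highest in PαA, and Ldhb was highest in αA. Ldhb had log2 ratios of 0.46 (0.34 to 0.58) for αA to N and -0.30 (-0.42 to -0.18) for PαA to αA, and Ldha one of 0.25 (0.22 to 0.28) for PαA to αA. The ratio of Ldha to Ldhb was 12.3 (11.5 to 13.1) in N, 9.02 (8.52 to 9.55) in αA and 13.2 (12.4 to 14.1) in PαA. The lactate exporters Slc16a1 (MCT1) and Slc16a3 (MCT4) were at 8.24, 6.01 and 5.33 RPKM and at 7.57, 6.21 and 5.76 RPKM. Their ratio did not differ from 1 beyond counting error in any library, at 1.09 (1.00 to 1.19), 0.97 (0.87 to 1.07) and 0.92 (0.83 to 1.03).

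**Figure D4:**
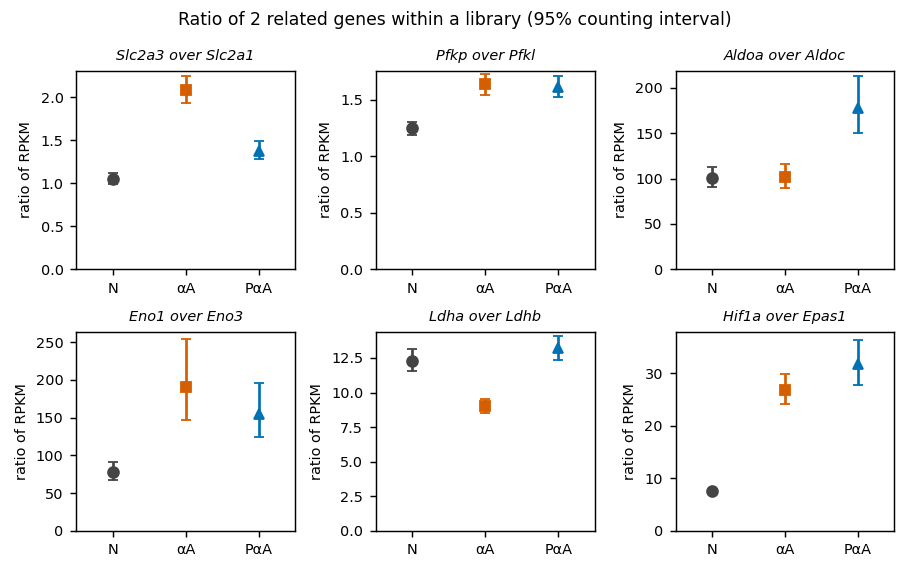
Ratio of the RPKM of 2 related genes within each library, with exact 95% counting intervals, on axes that start at 0. The ratio of Slc2a3 to Slc2a1 is highest in αA, that of Ldha to Ldhb lowest in αA, and that of Hif1a to Epas1 is 7.55 in N against 26.7 and 31.7 in the other libraries.

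Of the regulators of flux, Pfkfb3 makes fructose 2,6-bisphosphate, the strongest activator of phosphofructokinase. It was at 7.28, 4.58 and 3.35 RPKM, highest in N and lowest in PαA, with log2 ratios of -0.67 (-0.81 to -0.53) for αA to N and -0.45 (-0.62 to -0.28) for PαA to αA. Its intron reads, 112, 116 and 140, did not follow that order. Pfkfb4, a related enzyme, was at 0.60, 1.27 and 0.25 RPKM from 65, 127 and 23 reads, so that its log2 ratio of PαA to αA was -2.37 (-3.08 to -1.72) at a level below the limit of 5 RPKM.

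The members of the pyruvate dehydrogenase branch, which sends pyruvate to mitochondria, differed little. Other genes of that branch are given below. Pdk1 and Pdk3, kinases that switch the complex off, were at 6.81, 6.24 and 5.08 RPKM and at 23.6, 21.5 and 19.1 RPKM. Pdha1, the subunit they phosphorylate, was at 55.8, 46.9 and 48.6 RPKM, with 68.9% to 75.8% unique reads. Pdk3 exceeded Pdk1 by 3.46-fold in N, 3.45-fold in αA and 3.76-fold in PαA, with overlapping intervals. Pdk1 did not differ between αA and N beyond counting error, and the log2 ratio of Pdk3 there, -0.13, turned to 0.03 with TMM factors.

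The remaining HIF targets had their low point in αA. P4ha1, a subunit of collagen prolyl 4-hydroxylase, was at 21.3, 15.02 and 20.0 RPKM, with log2 ratios of -0.50 (-0.59 to -0.41) and 0.42 (0.32 to 0.51). Bnip3, a mitophagy receptor, was at 5.80, 4.91 and 7.60 RPKM from 320, 248 and 359 reads, and αA and N did not differ in it beyond counting error. It was 1.55-fold higher in PαA than in αA (log2 ratio 0.63, 0.39 to 0.87), and on unique reads, which were 57.8%, 49.2% and 65.7% of its reads, the log2 ratio was 1.05. Among 19 other hypoxia-induced genes, 10 had RPKM above 5. Of these 10, 8 were higher and 2 lower in PαA than in αA, where 56.9% of all genes at that level were lower. The median log2 ratio of the 10 was 0.39, against -0.06 for all genes at that level. Ndrg1, a stress-induced gene, was past 2-fold there at 6.11, 3.24 and 7.91 RPKM (log2 ratio 1.29). Ddit4, an inhibitor of mTORC1, was at 220, 231 and 348 RPKM, and Hilpda, a lipid droplet protein, at 8.14, 8.52 and 14.99 RPKM. Between αA and N, Kdm3a, Ndrg1 and Ero1l of the 10 were past 1.5-fold lower, against 11% of genes. Between PαA and N, Ddit4 and Hilpda were past 1.5-fold higher, against 5.67% of genes, and Kdm3a lower, against 22.3%.

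Few genes of the other lists of glucose metabolism passed 2-fold. Of 20 other glycolysis enzymes and isozymes, 4 had RPKM above 5 and none passed 1.5-fold in any of the 3 comparisons. Of 14 genes of the pentose phosphate and branch pathways, 12 had RPKM above 5, 6 were higher and 6 lower in αA than in N, and the only 1 past 1.5-fold in any comparison was Phgdh, the first enzyme of serine synthesis, at 58.3, 67.9 and 44.9 RPKM, lower in PαA than in αA with a log2 ratio of -0.60, or -0.53 with TMM factors, short of 1.5-fold. Of 11 other glucose and monocarboxylate transport genes, 4 had RPKM above 5. By RPKM all 4 were higher in PαA than in αA, where 56.9% of all genes were lower, with a median log2 ratio of 0.41. They include Mpc2, a subunit of the mitochondrial pyruvate carrier, at 36.1, 28.7 and 43.4 RPKM. For Bsg the log2 ratio, 0.03 (-0.03 to 0.08), was within counting error, and it was -0.14 with TPM. For Mpc1 15.2% to 16.7% of reads were unique. Of 9 genes of the pyruvate dehydrogenase complex and its regulators, 5 had RPKM above 5, and Dlat was past 1.5-fold lower in αA than in N at 9.54, 6.30 and 6.58 RPKM, and Pdk2 past 1.5-fold lower in PαA than in N at 5.56, 4.67 and 3.30 RPKM. Neither passed 1.5-fold with TMM factors, and the median log2 ratio of the 5 for PαA to N was -0.54, or -0.31 with TMM. Pdp1, below 5 RPKM, was at 4.06, 1.47 and 4.79 RPKM from 544, 181 and 550 reads. Its log2 ratios were -1.46 (-1.71 to -1.22) for αA to N and 1.70 (1.46 to 1.95) for PαA to αA. Pdhx and Pdp2, also below 5 RPKM, differed less. Of 15 regulators of glucose use, 12 had RPKM above 5. Rptor, the defining subunit of mTORC1, was the only 1 of them past 2-fold between αA and N, at 7.08, 3.36 and 2.89 RPKM (log2 ratio -1.08), and was short of 2-fold with TMM factors (-0.92) and when centred on exon length (-0.74).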

How the data were processed

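RNA of 3 sorted TFR samples, 1 per genotype, was measured by poly(A) RNA-seq with single reads of 59 bases after 15 PCR cycles. The authors aligned reads to GRCm38 and counted them in CLC Genomics Workbench 12 with default settings. The annotation release is not given in the sources used here. They deposited whole-number counts of total, unique and intron reads, and other values (RPKM and TPM, written with decimal commas). Reads matching several places are in the total counts, and 3715 genes have an exon length of 0.

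Ratios of RPKM were given exact (Clopper-Pearson) 95% intervals from the exon read counts. A gene was called when it had RPKM above 5 in at least 1 library and differed more than 2-fold (also 1.5-fold). A gene above 5 RPKM in 1 library alone is thereby selected as high there. Alternatives were TPM, TMM factors (edgeR 4.0.16), median-of-ratios factors, unique reads, RPKM above 1 and pseudocounts of 0.1 and 1. Centring on exon length (lowess, fraction 0.3) and leaving out members under 90% unique reads were added after seeing the data. Intron ratios needed 50 intron reads in both libraries. Calculations used Python 3.11.15 and were tested on simulated data. All 33 members are named. Of the other lists of glucose metabolism, the HIF pathway and hypoxia, genes past 2-fold with RPKM above 5 are named. In the marker lists some genes past 2-fold are not named. Other genes, named for context, were chosen after their values were seen. The members and lists were chosen with earlier results of these data known.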

Additional observations from a re-analysis of the deposited data

How the results depend on the processing

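The count of members past 2-fold moved with the setting. Between αA and N it was 1, and became 2 with TPM, 3 with RPKM above 1 and 6 at 1.5-fold. Between PαA and αA it was 0, and became 1 with RPKM above 1 and 2 at 1.5-fold. On unique reads Bnip3 passed 2-fold there, making 1 of the same 28 members, but it was not counted where the level of 5 RPKM was also taken on unique reads, which left 0. Between PαA and N it was 3, and became 5 with TPM, 1 with TMM factors, 1 with median-of-ratios factors, 1 when centred on exon length, 5 with RPKM above 1 and 8 at 1.5-fold. With TPM the level of 5 applies to TPM, which admits further genes. The members' median log2 ratio of αA to N was -0.27, and -0.11 with TMM, -0.10 with median-of-ratios factors and -0.14 when centred. That of PαA to αA was 0.003, and -0.16 with TPM and -0.14 without members under 90% unique reads. That of PαA to N was -0.26, and -0.46 with TPM, -0.036 with TMM, -0.020 with median-of-ratios factors, -0.022 when centred and -0.35 without members under 90% unique reads. No member past 1.5-fold changed sign under any of these scalings. Within a comparison, TPM, TMM and median-of-ratios factors shift all log2 ratios alike, by too little to change such a sign. For them this outcome was fixed in advance. The limit of 1.5-fold was set here after the sign changes of smaller differences were seen. Smaller differences did, although their intervals excluded a ratio of 1. Between αA and N these were Hk1, Gpi1, Pkm and Pdk3 of 28 such members with TMM or median-of-ratios factors, and the first 3 when centred. Between PαA and αA it was Gapdh of 26, with TPM, unique reads or centring. Between PαA and N they were, of 31, 9 with TMM or median-of-ratios factors (Slc2a3, Gpi1, Pfkp, Gapdh, Pgk1, Pgam1, Pdha1, Egln1 and P4ha1), 8 when centred (Slc2a3, Hk2, Gpi1, Pfkp, Slc16a3, Pdk1, Egln1 and P4ha1) and 2 with TPM (Eno1 and Ldhb). The cause was not tested. No paired analysis was possible because each genotype has 1 library, and none could be left out.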
